A study of Mus musculus with 10 samples.

Results

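Gene expression was compared between 3 arrays of Ezh2-deleted LSK cells from mice with MDS/MPN and 2 arrays of the same genotype from mice with MDS. The 3 were chosen as the arrays at 9-12 months whose source name gives MDS/MPN, and the 2 as those whose disease is MDS alone, which makes 5 of the 10 arrays of the study. LSK cells are marrow cells without lineage antigens but with Sca-1 and c-Kit on their surface, among them the blood stem cells and the earliest progenitors, and here they were sorted for the CD45.2 marker. Both groups were C57BL/6 with the genotype Cre-Ert;Ezh2fl/fl, in which tamoxifen activates the recombinase and deletes Ezh2, and both were collected 9-12 months after transplantation and tamoxifen. Within MDS/MPN, the disease of replicate 1 is written with TC added, an abbreviation that no label explains, and replicate 3 has CMMoL in its source name. An array of the same genotype and age with undetermined disease and a tamoxifen-treated Cre-Ert array of the same age without floxed Ezh2, called WT, are quoted for context only, and the array of mixed diseases was left out. The scanner file of that WT array matched the column of the 3-month WT sample in the deposited value table, so its age rests on the file assignment and on its place on the slide of the other arrays named here. Each array carries a code of its own, but the number of animals behind an array and what the recipient mice were are not given in the sources used here, so p-values measure only the spread between these arrays.

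MDS is a clonal disease of blood stem cells with ineffective production of mature cells, whereas MDS/MPN joins these features with an overproduction of myeloid cells, of which chronic myelomonocytic leukaemia is the best known form. EZH2 is the main enzyme of Polycomb repressive complex 2 (PRC2), which methylates histone H3 at lysine 27 and keeps developmental and lineage genes silent, and loss-of-function mutations of EZH2 occur in human MDS and MDS/MPN. EZH1 is the second enzyme of the complex and carries part of the methylation when EZH2 is lost.

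Levels are log2 intensities over the 75th percentile of the array, so that a level of 0 equals that percentile, and differences are MDS/MPN minus MDS on the log2 scale with their standard error. The share of probes well above background was 32.5%, 47.5% and 37.3% on MDS/MPN replicates 1, 2 and 3, against 39.4% and 40.6% on MDS replicates 1 and 2, and no spot was saturated. All 5 arrays shared a slide, but the MDS/MPN arrays lay in line 2 of it and the MDS arrays in line 1, so that slide line and disease cannot be told apart. On the same slide, the WT array lay in line 1 and the undetermined array in line 2. Where the WT array lies near MDS or the undetermined array near MDS/MPN below, slide line cannot be told apart either. The 75th percentile signal by which levels are divided was 89.4, 301.7 and 96.9 on MDS/MPN replicates 1, 2 and 3. It was 144.8 and 143.2 on the MDS arrays. MDS/MPN replicate 2 stood apart from the other MDS/MPN arrays. From the MDS arrays it differed at least 2-fold in 26.5% and 26.1% of features, against between 19.3% and 27.8% for the other MDS/MPN arrays, and many list medians are also given without it. It was at least 2-fold apart from MDS/MPN replicates 1 and 3 in 45.2% and 45.3% of the 20771 features tested, whereas replicates 1 and 3 differed so in 7.65% and the MDS arrays from each other in 10.8%. The 6 pairs of an MDS/MPN with an MDS array lay between, at 19.3% to 27.8%. The immediate early genes Fos and Nr4a1, which are induced within minutes by stimuli that include cell isolation, were named after their values were seen. Fos had levels of -0.98, 6.71 and 0.25 in MDS/MPN and 3.14 and 2.04 in MDS, and Nr4a1 had levels of -0.24, 7.62 and 0.40 in MDS/MPN and 1.32 and 1.55 in MDS. Both were highest on MDS/MPN replicate 2 among the 5 arrays. The Y-linked gene Eif2s3y had levels of 2.24, -5.90 and 0.71 in MDS/MPN and 2.08 and 1.74 in MDS, and Xist, which is transcribed from the inactive X chromosome, was well above background on MDS/MPN replicate 2 alone, at 2.09. The labels give no sex, and the part of these differences in the results was not tested.

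**Figure D1:**
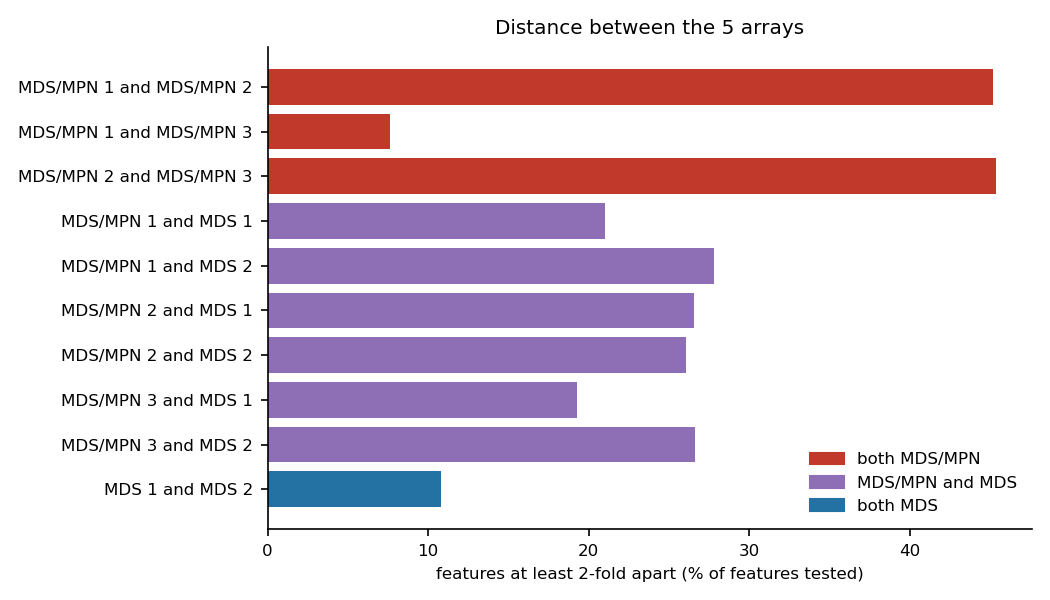
Share of the 20771 features that differed at least 2-fold (percent) for each pair among the MDS/MPN and MDS arrays. MDS/MPN replicate 2 differed from MDS/MPN replicates 1 and 3 in 45.2% and 45.3% of features, more than any MDS/MPN array differed from an MDS array.

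No gene passed the test between MDS/MPN and MDS. Of the 20771 features, of which 12453 were genes with a symbol, 0 (0%) were called higher and 0 (0%) lower by limma at an adjusted p of 0.05, and the lowest adjusted p was 0.950. At an unadjusted p under 0.05 there were 308 features higher and 613 lower in MDS/MPN. The groups did not overlap for 1611 features (7.76%) on the higher side and 2485 (12.0%) on the lower side, and with a difference of at least 2-fold in addition these were 404 (1.95%) and 745 (3.59%). The median difference over all features was -0.02. Without MDS/MPN replicate 2, limma still called 0 (0%) higher and 0 (0%) lower of 21580 features, with 4090 higher and 2378 lower at an unadjusted p under 0.05 and a lowest adjusted p of 0.117. The groups then did not overlap for 41.0% of features on the higher side and 24.7% on the lower side, and the median difference over all features was 0.15. An exact permutation test of 3 against 2 arrays has 10 arrangements and cannot give a two-sided p below 0.2. The differences below are therefore descriptions of these 5 arrays.

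The genes of the sort gate were measured in both groups, with a lower level of Kit, Cd34 and Flt3 in MDS/MPN. Kit, the stem cell factor receptor that defines the gate, had levels of 3.90, 4.11 and 3.86 in MDS/MPN and 5.23 and 5.12 in MDS. The 3 MDS/MPN arrays were all below both MDS arrays, with a difference of -1.22 ± 0.32 (limma adjusted p = 0.992), and without MDS/MPN replicate 2 it was -1.29. The WT array had a level of 5.06, close to the MDS arrays, and the undetermined array had 4.09, close to the MDS/MPN arrays. Flt3, the receptor of multipotent and lymphoid-primed progenitors, had levels of 3.88, 5.61 and 3.45 in MDS/MPN and 6.10 and 6.50 in MDS, and Cd34 had 7.37, 7.15 and 7.57 in MDS/MPN and 8.10 and 8.22 in MDS. Neither overlapped between the groups, at differences of -1.99 ± 0.70 for Flt3 and -0.79 ± 0.33 for Cd34 (adjusted p = 0.992 each). Ly6a, which encodes Sca-1, the other defining antigen, did overlap, with levels of 4.56, 4.85 and 5.20 in MDS/MPN and 4.57 and 4.25 in MDS. Slamf1, which encodes the stem cell antigen CD150, was well above background on 3 of 3 MDS/MPN and 1 of 2 MDS arrays and overlapped too. The leukocyte antigen gene Ptprc (CD45) differed by 0.10 ± 0.63, and by -0.46 without MDS/MPN replicate 2. In bulk samples such as these, fewer cells of a type and less RNA per cell cannot be told apart.

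Among the PRC2 genes, Ezh1 was the one that lay lower in MDS/MPN without overlap. Ezh1 had levels of 3.43, 3.54 and 3.35 in MDS/MPN and 4.24 and 4.41 in MDS, with a difference of -0.88 ± 0.32 (limma adjusted p = 0.992), and the undetermined array had 3.52 and the WT array 3.81. Ezh2 had levels of 2.28, 3.35 and 2.24 in MDS/MPN and 2.28 and 2.13 in MDS, and 2.63 on the WT array. The Ezh2 levels overlapped between the groups, and where the probe lies relative to the deleted exons is not known here, so they check neither the deletion nor the labels. The difference of Ezh1 was -0.94 without MDS/MPN replicate 2. Of the 11 PRC2 genes tested, 5 were above 0, with a median difference of -0.01 (-0.13 without MDS/MPN replicate 2) against -0.02 over all features, and the other gene without overlap was Phf19, an accessory subunit that reads methylated histone H3, at 0.41 ± 0.32. Among 17 genes of PRC1, the complex that ubiquitinates histone H2A, 8 were above 0 with a median of -0.06, and of 0.04 without MDS/MPN replicate 2. Rnf2, its catalytic ubiquitin ligase, lay lower by -0.71 ± 0.34 and the chromobox gene Cbx6 by -0.64 ± 0.35, and Kdm2b, which recruits a form of PRC1 to unmethylated CpG islands, lay higher by 0.31 ± 0.32, all 3 without overlap. The genes apart were thus 1 higher and 1 lower for PRC2 and 1 higher and 2 lower for PRC1. For both lists this is near the 7.76% and 12.0% of all features.

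Most stem cell genes had a lower level in MDS/MPN than in MDS. Fgd5, Tek and Fhl1 did not pass the filter on dim probes. Of the 25 members tested, 6 were above 0 and 19 below, with a median of -1.06, and the groups did not overlap for 13 on the lower side and 3 on the higher side, which compares with 12.0% and 7.76% of all features. Without MDS/MPN replicate 2 the median was -1.05 over 26 members, and over all alternatives it lay between -1.22 and -0.41, the last with another background correction (normexp). Hlf, a PAR bZIP transcription factor of stem cell self-renewal, had levels of 0.57, 2.17 and 1.1 in MDS/MPN and 4.01 and 4.29 in MDS. The MDS arrays were near the WT array, at 3.99, and the undetermined array, at -0.01, was below every MDS/MPN array. The difference of Hlf was -2.87 ± 0.54, a 7.30-fold lower level (limma adjusted p = 0.984), and it was -3.31 without MDS/MPN replicate 2. Procr, which encodes the endothelial protein C receptor of stem cells, had levels of -0.15, 1.41 and 0.50 in MDS/MPN and 3.25 and 2.97 in MDS, with -0.35 on the undetermined and 3.18 on the WT array. The groups of Procr were apart by -2.53 ± 0.53 (adjusted p = 0.992). Sult1a1, a phenol sulfotransferase, had levels of -0.83, -3.47 and -1.34 in MDS/MPN and 4.31 and 3.33 in MDS, with -1.28 on the undetermined and 0.68 on the WT array. It was 52.0-fold lower in MDS/MPN, at -5.70 ± 0.86 (adjusted p = 0.950), and -4.91 without MDS/MPN replicate 2. The Sult1a1 probe used was well above background on 4 of the 5 arrays, so the size of this difference rests in part on a background value. Clec1a, a C-type lectin, was well above background on both MDS and on none of the MDS/MPN arrays and was at least 1.66-fold lower in MDS/MPN (measured means -4.50 and -1.75). The exceptions included Vwf, which encodes von Willebrand factor of platelet-biased stem cells, megakaryocytes and endothelium. Vwf had levels of 3.43, 1.39 and 3.51 in MDS/MPN and 1.05 and 0.96 in MDS, higher by 1.77 ± 0.72 without overlap. Angpt1, the ligand of the receptor Tek, was picked out after its values were seen, with levels of 3.05, 3.67 and 2.63 in MDS/MPN and 4.37 and 4.34 in MDS, 0.95 on the undetermined and 4.48 on the WT array. As for Hlf, the undetermined array was the lowest of the 7 and the MDS arrays lay near WT. Over the 25 genes, the WT array lay nearer the MDS mean for 17 and the undetermined array nearer the MDS/MPN mean for 19. Each shares its slide line with the group it lay nearer, and the part of slide line was not tested.

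**Figure D2:**
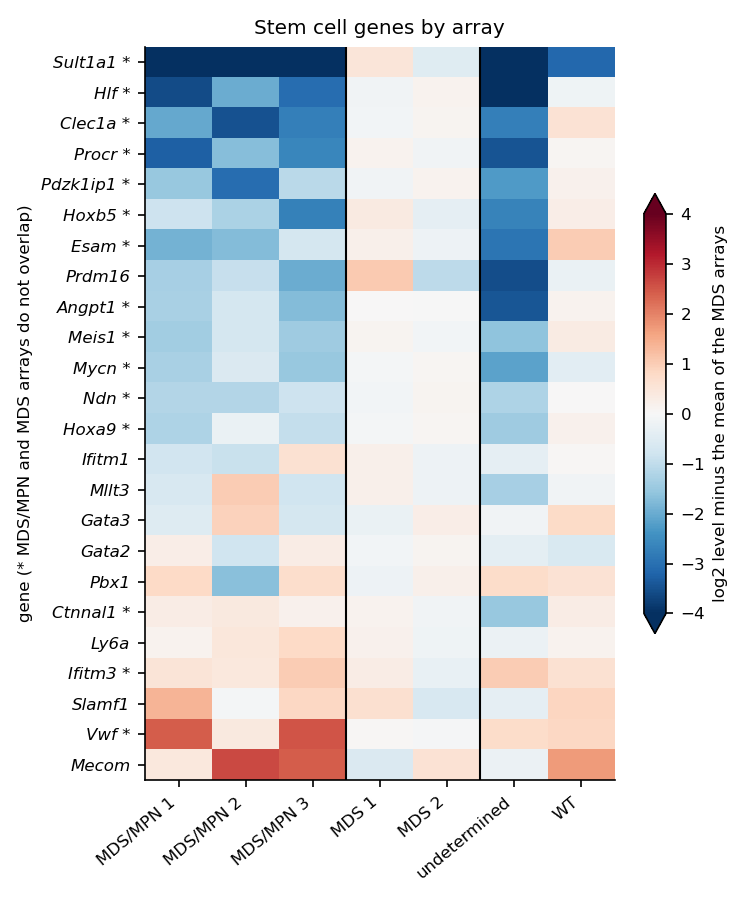
Heat map of 24 of the 25 stem cell genes tested (rows) on each array (columns: MDS/MPN, MDS, undetermined, WT), coloured by the log2 level minus the mean of the MDS arrays, with colours ending at 4 on either side and a star where MDS/MPN and MDS do not overlap. Hlf and Procr are blue (lower) on the 3 MDS/MPN arrays and on the undetermined array, and Vwf is red (higher) on the MDS/MPN arrays.

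Homeobox genes and regulators that act with them in myeloid leukaemia had medians below 0 too, and Meis1, Mycn, Hoxa9, Mecom and Hoxb5 among them are also counted with the stem cell genes. Of 10 Hoxa and Hoxb genes tested, 2 were above 0, with a median of -0.66, or -1.33 without MDS/MPN replicate 2, and 9 genes of the list were well above background on none of the 5 arrays. Only 3 were well above background on all 5 arrays, with a median of -0.35. With no filter the median was -0.13 over 21 genes, with 10 above 0. Hoxa10, well above background on 2 of 3 MDS/MPN and 2 of 2 MDS arrays, lay lower by -1.33 ± 0.40, with levels of -1.33, -0.70 and -1.59 in MDS/MPN and -0.02 and 0.26 in MDS. Of 14 myeloid oncogene regulators, 4 were above 0 with a median of -0.39, and the groups did not overlap for 5 on the lower side (12.0% of all features) and none on the higher. These were 8 lower and 2 higher without MDS/MPN replicate 2, against 24.7% and 41.0%. Meis1, the partner of Hoxa9, had levels of 3.34, 4.03 and 3.33 in MDS/MPN and 4.86 and 4.63 in MDS, a difference of -1.18 ± 0.38. Hoxa9 differed by -0.81 ± 0.41 and Mycn by -1.12 ± 0.41, both without overlap (limma adjusted p = 0.992 for the 3). Mecom, which encodes Evi1, was well above background on 2 of 3 MDS/MPN arrays and neither MDS array, and was at least 1.24-fold higher in MDS/MPN with overlapping groups (measured means -2.32 and -4.15). Of the fetal stem cell genes, 4 were tested, and Hmga2, a chromatin protein of fetal stem cells, had levels of -1.34, 0.37 and -2.37 in MDS/MPN and 0.26 and 0.69 in MDS, which overlapped, and was well above background on 2 of 3 MDS/MPN arrays. Genes mutated in human MDS and MDS/MPN had a median of 0.08 over 28 tested, with 16 above 0, but of -0.24 with 10 above 0 without MDS/MPN replicate 2. The isocitrate dehydrogenase gene Idh1 lay higher by 0.80 ± 0.34, the splicing factor gene Srsf2 higher by 0.68 ± 0.34 and the cohesin gene Stag2 lower by -0.57 ± 0.36, each without overlap.

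Genes of mitosis lay on the other side of the median. All 25 tested were above 0, with a median of 0.66, and the groups did not overlap for 15 on the higher side and none on the lower side, against 7.76% and 12.0% of all features. Ube2c, the ubiquitin-conjugating enzyme of the anaphase-promoting complex, had levels of 4.78, 4.70 and 4.92 in MDS/MPN and 4.21 and 3.77 in MDS. Cdc20, the activator of that complex, had levels of 6.45, 5.71 and 6.56 in MDS/MPN and 5.46 and 5.10 in MDS. Neither gene overlapped between the groups, at 0.81 ± 0.33 for Ube2c and 0.96 ± 0.41 for Cdc20 (limma adjusted p = 0.992 each). Cenpa, the centromeric histone, differed by 0.99 ± 0.44 and the spindle kinesin Kif20a by 0.69 ± 0.32, also apart. Among 28 DNA replication genes, 26 were above 0 with a median of 0.45, and the groups did not overlap for 6 on the higher and 1 on the lower side (7.76% and 12.0% of all features). Cdc45, a subunit of the replicative helicase, had levels of 0.52, 0.14 and 0.26 in MDS/MPN and -0.48 and -0.64 in MDS, a difference of 0.87 ± 0.33. Mcm10, which activates that helicase, differed by 0.90 ± 0.38, and Rrm2, the small subunit of ribonucleotide reductase, by 0.69 ± 0.40, both without overlap. Without MDS/MPN replicate 2, the medians were 0.61 for mitosis and 0.65 for DNA replication, against 0.15 over all features. Among 7 inhibitors of cyclin-dependent kinases, 2 were above 0. Cdkn3, a phosphatase that itself peaks in mitosis, lay higher by 0.79 ± 0.40, and Cdkn1b (p27) and Cdkn1c (p57), which hold stem cells out of cycle, lay lower by -0.62 ± 0.33 and -0.69 ± 0.43, the 3 without overlap.

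The 12 genes on the higher side, taken by the lowest unadjusted p among those whose groups did not overlap and differed at least 2-fold, had adjusted p-values between 0.950 and 0.992 by limma. Several encode secreted signals. Il1b, the cytokine interleukin-1 beta, had levels of -1.18, -1.85 and -1.03 in MDS/MPN and -4.22 and -4.19 in MDS. It was well above background on all 3 MDS/MPN arrays and on neither MDS array, nor on the undetermined or WT array, and was at least 2.42-fold higher in MDS/MPN (measured means -1.35 and -4.20). Acod1, the enzyme that makes itaconate in activated macrophages, was likewise well above background in MDS/MPN alone and at least 2.17-fold higher (measured means -1.51 and -4.23). Cxcl10, an interferon-induced chemokine, had levels of 0.91, 2.92 and 2.35 in MDS/MPN and -1.03 and -0.67 in MDS, 7.51-fold higher at 2.91 ± 0.65. Gdf3, a ligand of the TGF-beta family, had levels of 4.43, 3.78 and 4.35 in MDS/MPN and 1.98 and 1.43 in MDS. The difference of Gdf3 was 2.48 ± 0.39, and the undetermined array, at 5.01, and the WT array, at 3.50, both lay nearer MDS/MPN. Id1, an inhibitor of basic helix-loop-helix transcription factors induced by BMP signals, had levels of 2.14, 2.24 and 2.81 in MDS/MPN and 0.29 and 0.19 in MDS, with 0.81 on the undetermined and -1.01 on the WT array. The 3 MDS/MPN arrays were the highest of these 7, at a difference of 2.16 ± 0.37 (adjusted p = 0.950).

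The other genes on the higher side were of mixed function. Tmem132a had levels of 1.05, 1.35 and 1.72 in MDS/MPN and -0.33 and -1.66 in MDS, and Gpr25, an orphan receptor gene, had 0.31, 0.66 and 1.26 in MDS/MPN and -1.75 and -1.26 in MDS. They were 5.18-fold and 4.74-fold higher, and Apba1, a neuronal adaptor of the amyloid precursor protein, was 2.71-fold higher. The cyclic nucleotide phosphodiesterase Pde10a was at least 3.09-fold higher (measured means -1.0 in MDS/MPN and -4.57 in MDS) and the actin-binding gene Pdlim4 at least 3.48-fold higher (measured means -0.83 and -3.54). Plxdc1, a membrane protein of tumour endothelium, was at least 3.48-fold higher (measured means -0.83 and -3.10) and Cbs, the cystathionine beta-synthase, at least 3.58-fold higher (measured means -0.52 and -2.36). These 4 were well above background on the 3 MDS/MPN arrays and neither MDS array.

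The 12 genes on the lower side had adjusted p-values of 0.950, and Sult1a1 among them is described with the stem cell genes. Tsc22d3, a leucine zipper protein induced by glucocorticoids, had levels of 4.07, 3.84 and 3.94 in MDS/MPN and 6.35 and 7.01 in MDS. It was 6.64-fold lower in MDS/MPN at -2.73 ± 0.36, and the WT array, at 4.34, lay with MDS/MPN. Trib3, a pseudokinase of the integrated stress response, had levels of -0.60, -0.04 and 0.44 in MDS/MPN and 3.09 and 2.76 in MDS, 7.95-fold lower, with 1.82 on the WT array. Hacd4, which acts in the elongation of very long fatty acids, had levels of -0.17, 0.10 and -0.09 in MDS/MPN and 2.25 and 2.25 in MDS. Bdh2, a cytosolic dehydrogenase, had levels of -0.03, 0.58 and -0.14 in MDS/MPN and 2.56 and 2.60 in MDS. The WT array, at 1.88 for Hacd4 and 2.30 for Bdh2, lay near the MDS arrays for both. Gpr65, a receptor that senses protons, had levels of 1.97, 2.10 and 1.87 in MDS/MPN and 3.80 and 4.14 in MDS, 3.98-fold lower. Cyp26b1, which degrades retinoic acid, had measured means of -4.54 in MDS/MPN and 0.39 in MDS and was well above background on both MDS arrays, and on the WT array at -1.14, but on no MDS/MPN array. It was at least 7.29-fold lower in MDS/MPN, and the secreted protease inhibitor gene Wfdc2 was at least 2.25-fold lower (measured means -3.32 and -1.20). Cldn5, a claudin of endothelial tight junctions, the monocarboxylate carrier Slc16a9, Garnl3 and Fam181b were each well above background on 1 of 3 MDS/MPN and 2 of 2 MDS arrays. Their measured means were -3.97, -2.87, -2.45 and -3.04 in MDS/MPN and -0.61, -0.25, 0.04 and 0.80 in MDS, and since most of the MDS/MPN values are background values, the size of these differences is not settled. Without MDS/MPN replicate 2, the measured differences of the 12 were between -4.91 and -2.05. The undetermined array lay nearer the MDS/MPN mean for 12 of the 12 lower and 9 of the 12 higher genes, and the WT array lay nearer the MDS mean for 7 of the lower and 10 of the higher. These counts follow the slide lines too, and the part of slide line was not tested.

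**Figure D3:**
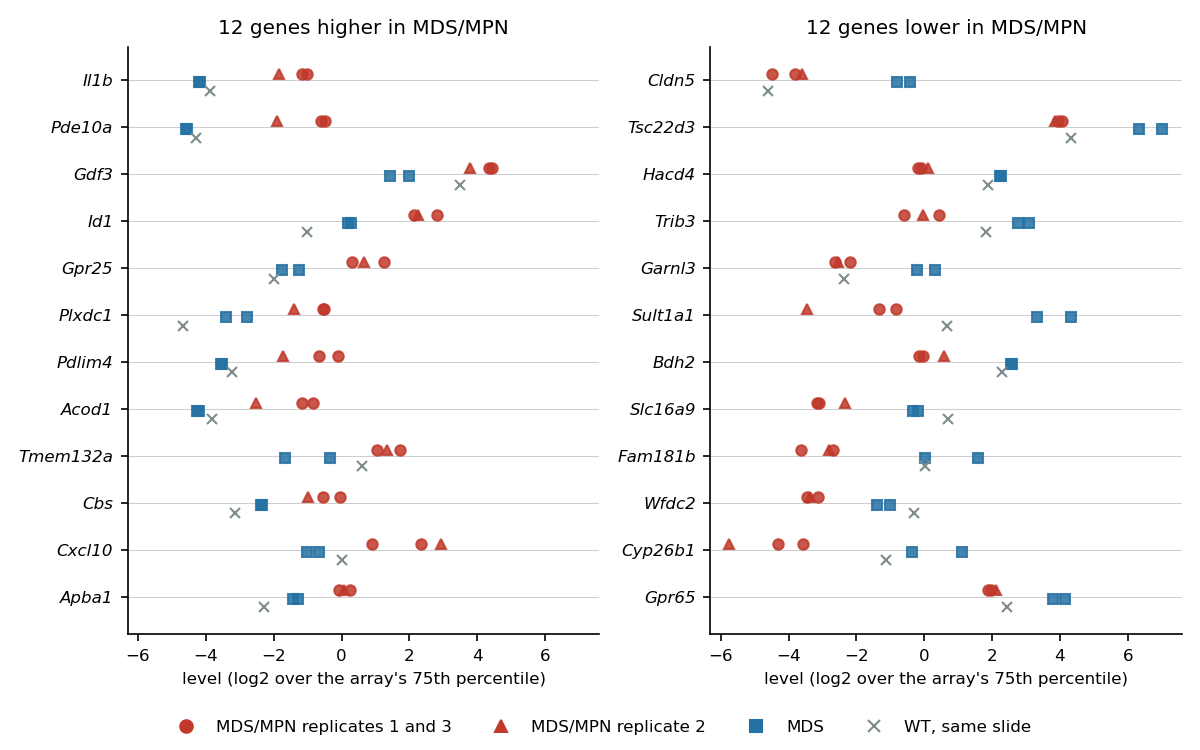
Log2 level over the 75th percentile of the array, for the 12 genes on the higher side (left) and the 12 on the lower side (right). Circles are MDS/MPN replicates 1 and 3, triangles MDS/MPN replicate 2, squares the MDS arrays and crosses the WT array, and by the rule that chose the genes the MDS/MPN and MDS points do not overlap.

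Genes of MHC class II antigen presentation lay higher in MDS/MPN, at a median of 0.80 over 11 tested, with 9 above 0, and of 1.19 with 10 above 0 without MDS/MPN replicate 2. Cd74, the invariant chain, had levels of 5.96, 5.61 and 6.46 in MDS/MPN and 4.74 and 3.77 in MDS, with 4.28 on the undetermined and 1.91 on the WT array. H2-Eb1 had levels of 8.33, 6.95 and 8.73 in MDS/MPN and 6.37 and 5.87 in MDS, and H2-Ab1 had 9.01, 7.62 and 9.30 in MDS/MPN and 7.18 and 6.56 in MDS. These 3 were apart by 1.76 ± 0.47, 1.89 ± 0.60 and 1.78 ± 0.60 (limma adjusted p = 0.992 each), and all 5 arrays were above the WT array, which had 4.62 for H2-Eb1 and 6.23 for H2-Ab1. H2-Ob, a chain of the accessory H2-O that restrains peptide loading, went the other way, at -1.35 ± 0.49 without overlap. Among 20 markers of monocytes, macrophages and dendritic cells, 14 were above 0 with a median of 0.44, and 2 were apart on the higher and 1 on the lower side, which is near the 7.76% and 12.0% of all features. The median was 0.66 without MDS/MPN replicate 2. Cd14, the lipopolysaccharide co-receptor, had levels of -0.69, 0.29 and 0.74 in MDS/MPN and -1.09 and -1.85 in MDS, at 1.58 ± 0.54. Ms4a6c, expressed in monocytes, differed by 0.87 ± 0.40 without overlap, and Irf8, the transcription factor of monocyte and dendritic fate, by 0.52 ± 0.38 with overlap. The summed linear level of that marker list was 350.5, 389.1 and 350.1 in MDS/MPN and 338.4 and 325.3 in MDS. The MHC class II list summed to 1050.5, 425.5 and 1305.7 in MDS/MPN and 330.7 and 248.1 in MDS, so that the MDS/MPN arrays were above both MDS arrays for both sums. The part of such cells in the MHC class II difference was not tested.

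Inflammatory and interferon response genes were mostly above 0 over the 5 arrays. Without MDS/MPN replicate 2 neither median was above that of all features. Of 19 inflammatory cytokine and NF-kB genes, 12 were above 0 with a median of 0.50, and the groups did not overlap for 8 on the higher side (7.76% of all features) and none on the lower. Besides Il1b and Cxcl10, Tnfaip2, a target of tumour necrosis factor, had levels of 3.86, 1.93 and 3.51 in MDS/MPN and 1.76 and 1.77 in MDS, at 1.34 ± 0.63. Of 27 interferon response genes, 20 were above 0 with a median of 0.46, and 9 were apart on the higher side (7.76% of all features) and none on the lower. Gbp2, a guanylate-binding protein, had levels of 4.57, 4.03 and 3.92 in MDS/MPN and 2.87 and 3.20 in MDS, at 1.14 ± 0.37. Gbp3 of the same family differed by 0.71 ± 0.34, the transcription factor Irf7 by 0.79 ± 0.38 and the ISG15 protease Usp18 by 0.64 ± 0.34, none overlapping (limma adjusted p = 0.992). Without MDS/MPN replicate 2 the medians were 0.13 for the inflammatory and 0.05 for the interferon list, against 0.15 over all features. Members then went both ways, with Il1b at 3.10 and Gbp2 at 1.21. Ccl4 at -3.79 and Rsad2 at -1.91, named after their values were seen, lay lower. The direction of the AP-1 and immediate early genes rested on MDS/MPN replicate 2. Their median level was 0.05, 4.38 and 0.28 in MDS/MPN and 1.67 and 2.04 in MDS, with 3.33 on the WT array. The median difference of the 21 tested was 0.14, and -1.09 without replicate 2, when 15 were apart on the lower and 1 on the higher side, against 24.7% and 41.0% of all features.

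Receptors and their feedback genes differed in both directions. Of 22 growth factor receptors, 8 were above 0 with a median of -0.36. The groups did not overlap for 7 on the lower and 2 on the higher side, against 12.0% and 7.76% of all features. Tgfbr2, the TGF-beta type II receptor, had levels of 2.29, 2.37 and 2.37 in MDS/MPN and 3.26 and 3.82 in MDS, a difference of -1.20 ± 0.34. Csf2rb2, which encodes the interleukin-3 receptor beta chain of the mouse, had levels of 2.49, 2.62 and 3.14 in MDS/MPN and 1.72 and 1.55 in MDS, a difference of 1.11 ± 0.36 (limma adjusted p = 0.992 for both). Neither receptor overlapped between the groups. Of 17 JAK-STAT feedback and target genes, 8 were above 0, with a median of -0.07, or 0.13 without MDS/MPN replicate 2. Pim3, a survival kinase, lay higher by 0.74 ± 0.32 and Cish, a suppressor of cytokine signalling, lower by -0.96 ± 0.42, both without overlap. Of 13 RAS-MAPK feedback genes, 3 were above 0 with a median of -0.46. Their direction rests on single arrays: the median was -1.26 without MDS/MPN replicate 2, when 11 were apart on the lower side (24.7% of all features), and 0.29 with 8 of 14 above 0 without MDS/MPN replicate 1. Dusp6, the ERK phosphatase, had levels of 3.42, 4.31 and 3.34 in MDS/MPN and 4.66 and 4.60 in MDS, a difference of -0.94 ± 0.42, and the transcription factor Etv5 differed by -0.77 ± 0.39. Phlda1, an early response gene well above background on 1 of 2 MDS arrays, went the other way, with -0.57, 2.61 and -0.42 in MDS/MPN and -3.03 and -1.89 in MDS. Among 11 genes of the TGF-beta, BMP and Id list, 5 were above 0, with a median of -0.23, but of 0.17 without MDS replicate 2. Id3 had levels of -0.69, 1.37 and -2.74 in MDS/MPN and -2.85 and -4.03 in MDS, well above background on 2 of 3 MDS/MPN and neither MDS array. The measured difference was 2.76 ± 1.19, and 1.73 without MDS/MPN replicate 2. Id3 was at least 3.83-fold higher (measured means -0.69 in MDS/MPN and -3.44 in MDS), a bound that rests in part on a background value in MDS/MPN. Id2, its relative, lay lower by -1.05 ± 0.46 and the inhibitory Smad6, well above background on 2 of 3 MDS/MPN arrays, by -0.69 ± 0.35, both without overlap.

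Genes of the neutrophil path were mostly above 0. All 10 primary granule genes tested were above 0, with a median of 0.80, and 2 were apart (7.76% of all features). The median was 1.19 and all 10 were apart without MDS/MPN replicate 2, against 41.0% of all features. Ms4a3, a marker of granulocyte and monocyte progenitors, had levels of 7.31, 4.93 and 8.05 in MDS/MPN and 5.69 and 4.39 in MDS, and Prtn3, which encodes proteinase 3, had 6.53, 5.96 and 7.20 in MDS/MPN and 6.06 and 5.17 in MDS. Both overlapped, at 1.72 ± 0.99 and 0.95 ± 0.52, and MDS/MPN replicate 2 lay below MDS replicate 1. Prss57, a granule protease, was apart by 0.78 ± 0.43. Of 13 late neutrophil granule genes, 11 were above 0 with a median of 0.77. Cebpe, the transcription factor of secondary granules, had levels of 3.84, 3.65 and 5.27 in MDS/MPN and 3.13 and 1.63 in MDS, with 4.42 on the undetermined and 0.68 on the WT array. The groups of Cebpe were apart by 1.87 ± 0.70 (limma adjusted p = 0.992), whereas Lcn2, a granule lipocalin, overlapped at 1.18 ± 0.66 and the collagenase Mmp8 lay lower by -1.49 ± 0.34, well above background on 1 of 3 MDS/MPN and 2 of 2 MDS arrays. Of 17 transcription factors of myeloid fate, 10 were above 0 with a median of 0.49. The summed linear level of the late granule genes was 44.4, 196.3 and 336.8 in MDS/MPN and 129.2 and 41.9 in MDS, and it overlapped.

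Erythroid and megakaryocyte genes depended on MDS/MPN replicate 2. The erythroid median was 0.12 over 26 genes, 0.67 without replicate 2 and -0.14 without MDS/MPN replicate 1, and that of the megakaryocyte and platelet genes was 0.01 over 18, 0.86 without replicate 2 and -0.28 without replicate 1. The transcription factor Gata1, named after its values were seen, had levels of 6.14, 2.13 and 5.54 in MDS/MPN and 3.37 and 3.28 in MDS. The platelet chemokine Pf4, named in the same way, had 7.67, 4.41 and 7.33 in MDS/MPN and 5.07 and 4.35 in MDS, so that replicates 1 and 3 were above and replicate 2 below or among the MDS arrays. Tfrc, the transferrin receptor, had levels of 2.09, 1.99 and 1.22 in MDS/MPN and 0.82 and 0.33 in MDS, and Ppox, of haem synthesis, was also higher on all 3 arrays, at 1.19 ± 0.42 and 0.91 ± 0.33. Genes of haemoglobin production went the other way. Hba-a1, an alpha-globin gene with near-identical copies, had levels of 3.67, -1.38 and 3.63 in MDS/MPN and 4.80 and 5.59 in MDS, with -1.99 on the WT array. The difference of Hba-a1 was -3.22 ± 1.61, and -1.54 without replicate 2. Alas2, the erythroid enzyme of haem synthesis, lay lower by -2.28 ± 0.84, well above background on 1 of 3 MDS/MPN and 2 of 2 MDS arrays. Of the platelet genes, Selp (P-selectin) lay lower by -1.01 ± 0.42 and Rgs18, a regulator of G protein signals in platelets, by -0.73 ± 0.34, both without overlap. The erythroid sums were 790.1, 184.5 and 579.2 in MDS/MPN and 592.1 and 774.5 in MDS, which overlapped. Mast cell and basophil genes had a median of -0.31 over 15, with 4 above 0, but of 0.15 without MDS/MPN replicate 2 and 0.58 without MDS replicate 1. Of 10 eosinophil genes 3 were above 0, with a median of -0.91, or -0.52 without MDS/MPN replicate 2, and Ear2, of the eosinophil-associated ribonuclease family, had levels of 0.83, -0.62 and 0.56 in MDS/MPN and 3.99 and 1.46 in MDS. Ear1 and Ear10 were also lower on every MDS/MPN than on either MDS array, at -2.60 ± 0.96 and -2.43 ± 0.88. As close paralogs the Ear probes may share signal.

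Lymphoid genes were spread widely within MDS/MPN. Of 13 lymphoid priming genes, 6 were above 0 with a median of -0.46. The median was -0.91 without MDS/MPN replicate 2, but 0.45 with 10 of 16 above 0 without replicate 1 and 0.13 without replicate 3. Dntt, the terminal transferase of lymphoid progenitors, had levels of 5.0, 8.37 and 5.61 in MDS/MPN and 7.42 and 8.03 in MDS. It overlapped at -1.40 ± 1.03, and without replicate 2 the difference was -2.42. Vpreb3, of the B cell marker list, had levels of 1.77, 4.85 and -1.54 in MDS/MPN and -1.69 and -2.60 in MDS, apart by 3.84 ± 1.76 but well above background on 1 of 2 MDS arrays. Jchain, the joining chain of polymeric antibodies, lay lower by -2.41 ± 0.76 and Cd72 by -0.86 ± 0.38, and of the 12 B cell markers 7 were above 0. Of 13 T cell markers 7 were above 0 with a median of 0.48. Cd6 had levels of 1.32, 2.51 and 2.16 in MDS/MPN and 0.41 and 0.40 in MDS, at 1.59 ± 0.45 without overlap. The summed linear levels were 57.2, 93.8 and 46.1 in MDS/MPN and 43.3 and 35.1 in MDS for B cell markers, and 44.2, 50.8 and 99.4 in MDS/MPN and 34.1 and 39.9 in MDS for T cell markers, both above in every MDS/MPN array. Of the T cell list, 5 genes were well above background on none of the 5 arrays. Of 9 NK and cytotoxic genes, 3 were above 0, with a median of -0.27, or 0.12 without MDS/MPN replicate 2, and Klrb1c (NK1.1) lay lower by -2.13 ± 0.52, well above background on 1 of 3 MDS/MPN and 2 of 2 MDS arrays. Of 9 stromal and endothelial markers, 4 were above 0, with a median of -0.03, or 0.75 without MDS/MPN replicate 2. Pdgfrb, a receptor of stromal cells, had levels of 1.64, 2.03 and 1.66 in MDS/MPN and 2.77 and 3.49 in MDS, at -1.36 ± 0.38 without overlap. The endomucin gene Emcn was well above background on 1 of 3 MDS/MPN and 2 of 2 MDS arrays, with levels of -3.70, -1.03 and -3.82 in MDS/MPN and 0.02 and -0.04 in MDS. The part of other cell types in these differences was not tested.

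**Figure D4:**
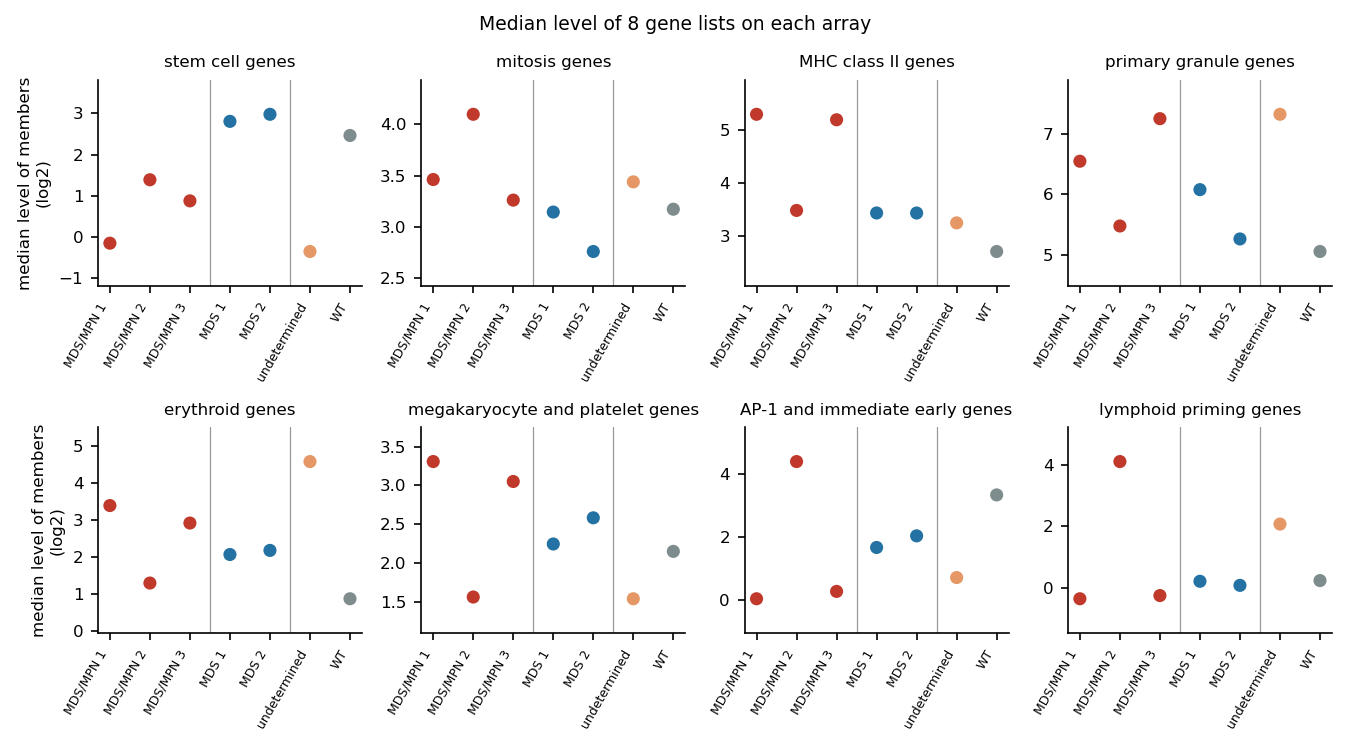
Median log2 level over the 75th percentile of the array for 8 gene lists, with a point for each MDS/MPN, MDS, undetermined and WT array. The stem cell list lies at -0.15, 1.39 and 0.88 in MDS/MPN and at 2.80 and 2.97 in MDS, and MDS/MPN replicate 2 lies apart from the other MDS/MPN arrays in the immediate early and lymphoid lists.

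Among the Bcl2 family genes of cell survival, Bmf and Pmaip1 differed most, in opposite directions. Bmf, a pro-apoptotic BH3-only protein, had levels of -1.59, -2.32 and -1.43 in MDS/MPN and 0.82 and 2.34 in MDS, with -1.45 on the undetermined and -2.02 on the WT array. It was well above background on 2 of 3 MDS/MPN arrays and lower in MDS/MPN by -3.36 ± 0.57 (limma adjusted p = 0.950), and the WT array lay with MDS/MPN. Pmaip1 (Noxa), another BH3-only protein and a p53 target, had levels of 0.32, 3.05 and 1.88 in MDS/MPN and -1.04 and -1.22 in MDS, higher by 2.88 ± 0.80 without overlap. Of 21 p53 target genes, 15 were above 0 with a median of 0.45. Sesn1, a stress-induced inhibitor of mTORC1, had levels of 3.66, 3.71 and 3.33 in MDS/MPN and 4.54 and 5.11 in MDS, and Trp53inp1, which promotes p53 activity, lay lower by -1.84 ± 0.55. Gtse1, a mitotic gene that restrains p53, lay higher by 1.09 ± 0.36, and the targets apart between the groups were 5 higher and 3 lower, against 7.76% and 12.0% of all features. Of 14 Bcl2 family genes, 11 were above 0, with a median of 0.33, and 1 was apart on the higher and 1 on the lower side. Heat shock and unfolded protein genes had a median of 0.41 over 22, with 17 above 0, and 1 was apart on the higher and 2 on the lower side. For both lists this is near or below the 7.76% and 12.0% of all features. Hspa5, the main chaperone of the endoplasmic reticulum, had levels of 6.31, 7.23 and 6.45 in MDS/MPN and 6.10 and 5.26 in MDS, apart by 0.98 ± 0.47.

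Among the housekeeping groups, respiration genes mostly lay higher in MDS/MPN. The 29 mitochondrial respiration genes had a median of 0.46, with 28 above 0. Of these genes 0 were apart between the groups, against 7.76% of all features on the higher and 12.0% on the lower side. After quantile normalization 4 were apart on the higher side, against 8.83% of all features. Cycs (cytochrome c) had levels of 6.86, 6.13 and 6.98 in MDS/MPN and 6.15 and 5.41 in MDS, where MDS/MPN replicate 2 and MDS replicate 1 overlapped, at 0.87 ± 0.44. Without replicate 2 the median was 0.95 and 26 were apart on the higher side, against 41.0% of all features. The 30 ribosomal protein genes had a median of -0.14, with 6 above 0 and none apart, and 0.33 without replicate 2, so their direction rests on that array. After quantile normalization 2 of them were apart on the higher and 7 on the lower side, against 8.83% and 14.9% of all features. Of 24 glycolysis and hypoxia genes, 16 were above 0 with a median of 0.36. The glucose transporter Slc2a3 had levels of 3.09, 2.64 and 2.86 in MDS/MPN and 3.83 and 3.85 in MDS, at -0.98 ± 0.33, while hexokinase Hk1 lay higher by 0.53 ± 0.33, both without overlap. Of 20 niche adhesion and homing receptors, 6 were above 0 with a median of -0.16, and 6 were apart on the lower and 1 on the higher side (12.0% and 7.76% of all features). Cxcr4, the receptor that retains stem cells in the marrow, had levels of 2.97, 1.38 and 2.86 in MDS/MPN and 3.65 and 3.74 in MDS, a difference of -1.29 ± 0.57. Esam, an adhesion protein of stem cells and endothelium, had -0.32, -0.15 and 0.88 in MDS/MPN and 1.78 and 1.39 in MDS, a difference of -1.45 ± 0.48, and neither gene overlapped. Itgal, the alpha chain of the integrin LFA-1, lay higher by 0.76 ± 0.33, also without overlap.

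**Figure D5:**
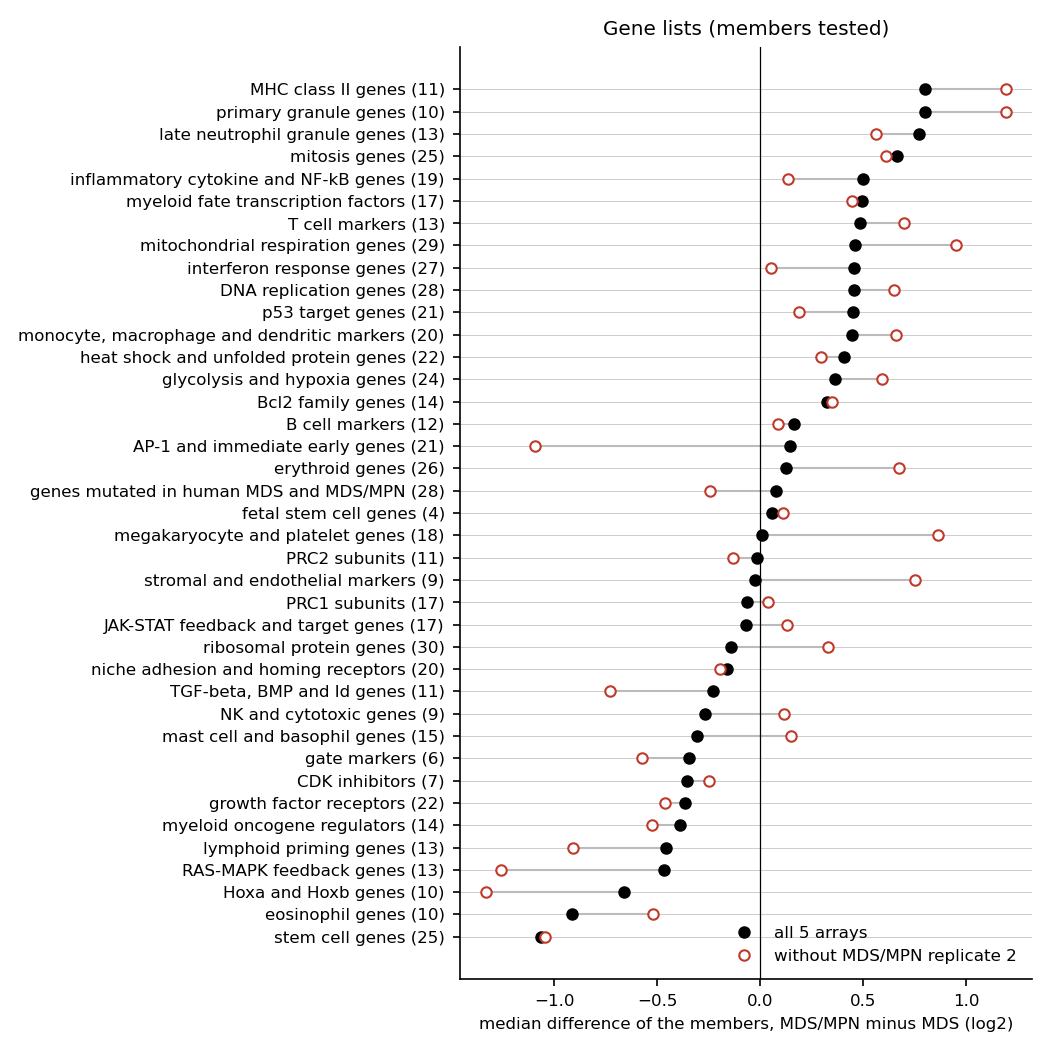
Median difference of each gene list, MDS/MPN minus MDS on the log2 scale, over all 5 arrays and without MDS/MPN replicate 2. The stem cell list lies at -1.06 and -1.05 and the mitosis list at 0.66 and 0.61, whereas the immediate early list lies at 0.14 and at -1.09 without replicate 2.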

How the data were processed

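RNA of sorted LSK cells was hybridised to one-colour Agilent arrays with Cy3, from 0.02 µg of RNA per array, per the labels' protocols. The deposited scanner files hold an intensity per spot from Feature Extraction 10.7.1.1, background-subtracted and detrended with low values replaced by a surrogate, per the file headers; the submitters' processing notes name version 9.1. The deposited value table holds a ratio, which by comparison with the scanner files is each probe's intensity over the 75th percentile of its array. It served to check the match of columns to arrays.

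Here, control and outlier spots were left out, spots of a probe averaged, and log2 intensities taken over the array's 75th percentile. Probes were named through RefSeq accessions, and each gene was represented by its brightest probe. Features entered the test if well above background in 50% or more of the arrays of either group. A gene counted as well above background on an array where any of its probes was. limma 3.58.1 in R 4.3.3 fitted 3 MDS/MPN against 2 MDS arrays with 3 residual degrees of freedom, checked on simulated data, with Benjamini-Hochberg adjustment. Figures were drawn with matplotlib 3.10.9, and tables were made with pandas 2.3.3 and numpy 2.4.6 under Python 3.11.15. "At least" folds are given where a group was well above background on none of its arrays. Values of that group are raised to their array's lowest signal that was well above background. The other group keeps its measured mean. A summed linear level adds the unlogged levels of the tested members of a list. The number of arrays limits every value.

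Genes named were Ezh2, Ezh1 and the gate markers, 12 per direction by unadjusted p among those apart and at least 2-fold different, and up to 4 per list; a few of these are not reported here. The members and the 40 lists were chosen with earlier results of these data known. Alternatives changed the scaling, filter, probe choice, background correction and arrays used.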

Additional observations from a re-analysis of the deposited data

How the results depend on the processing

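limma called 0 features in all 16 alternative settings, with a lowest adjusted p between 0.117 (without MDS/MPN replicate 2) and 0.9998 (without MDS/MPN replicate 1). Features apart and at least 2-fold different numbered 307 higher and 928 lower with the 75th percentile taken over probes well above background on all 5 arrays, against 404 and 745; that scaling put the median of all features at -0.17. They numbered 1413 higher and 849 lower with no filter, which turns the balance, and after normexp 111 and 206 with the 75th percentile and 96 and 267 with quantile normalization. Fewer arrays overlap less by construction: without MDS/MPN replicate 1, 2 or 3 they numbered 1304, 2297 and 1545 higher and 924, 1768 and 841 lower, and without MDS replicate 1 or 2, 867 and 479 higher and 1650 and 1304 lower.

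The stem cell median was -0.41 after normexp on the median spot signal, an alternative added after seeing the data, with the 75th percentile. The T cell median was 0.24 in that setting, 0.33 with the percentile over probes well above background on all arrays, 0.31 with no filter and -0.0008 over features well above background on all arrays. The gate median was -0.79 over those features, that of growth factor receptors -0.20 with the median probe, and that of Y-linked genes -0.34 with no filter. The heat shock median was 0.21 after quantile normalization and 0.19 after normexp with quantile normalization. Replicate numbers follow the order of deposition and pair nothing, but 2 MDS/MPN arrays each share a title prefix with 1 MDS array, and no label gives its meaning. With that prefix as a block the lowest adjusted p was 0.187, with 3016 features higher and 2254 lower at an unadjusted p under 0.05, and the differences are those without MDS/MPN replicate 2, with medians of -1.33 for Hoxa and Hoxb, 0.86 for megakaryocyte, 0.70 for T cell, 0.19 for p53 and -0.43 for Y-linked genes.

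Leaving out 1 array at a time gave ranges of 0.026 to 0.86 for the fetal stem cell median, 0.45 to 1.75 for late neutrophil, -0.46 to -0.017 for growth factor receptors, -1.33 to -0.18 for Hoxa and Hoxb, -0.28 to 0.86 for megakaryocyte, 0.19 to 0.70 for T cell, 0.19 to 0.54 for p53, -3.06 to -0.43 for Y-linked, 0.094 to 0.59 for glycolysis, -0.63 to -0.18 for CDK inhibitor and 0.14 to 0.70 for heat shock genes. The cause was not tested.

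Of the genes named, Ptprc reversed to -0.050 with the percentile over measured probes and to -0.46 under the block, Nr4a1 to -1.35 under the block and Fos to 0.006 after normexp with quantile normalization. Leaving out 1 array gave -0.46 to 0.42 for Ptprc, -2.95 to 0.90 for Fos and -1.35 to 2.58 for Nr4a1, each lowest without MDS/MPN replicate 2. Normexp on the mean spot signal was not run, since the files used here lack that column. Probes well above background on no array of a group carry only bounds, and those above it on part of a group rest in part on background values.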

Other observations

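On the array with undetermined disease, levels of many lists were on the MDS/MPN side although it entered no comparison. It lay nearer the MDS/MPN mean than the MDS mean for 27 of 28 DNA replication genes, 28 of 29 respiration genes, 10 of 10 primary granule genes and 20 of 27 interferon response genes, and nearer the MDS mean for 10 of 13 late neutrophil granule genes and 24 of 30 ribosomal protein genes. Its slide line is that of the MDS/MPN arrays, and the part of slide line in this was not tested. Its erythroid median level was 4.57, above those of the MDS/MPN arrays, at 3.39, 1.30 and 2.92, and of the MDS arrays, at 2.07 and 2.18.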
